A study of Mus musculus with 15 samples.

Results

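The 10 Bcl2 family genes described here encode proteins that control whether the outer mitochondrial membrane is opened during apoptosis, and they were chosen by name: Mcl1, Bcl2, Bcl2l1, Bcl2l11, Bax, Bak1, Bbc3, Pmaip1, Bid and Bad. They are 10 of 21887 protein-coding genes. Each gene was given its span in the mouse build mm10, widened by 10 kb on each side, and every called peak touching that window was collected. The windows held 129 of the 95112 peaks in 12 lists.

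The cells were HPC-7, a mouse early haematopoietic line derived from embryonic stem cells. They were profiled by CUT&Tag, in which an antibody tethers a transposase that cuts and tags the DNA beside its target, with about 150000 cells in each reaction. SMC3, a subunit of the cohesin ring, was profiled in cells carrying an shRNA against the transcription factor YY1 (shYY1) and in control cells. In control cells the promoter mark H3K4me3 and YY1 itself were also profiled, and 3 libraries with control IgG were not analysed here. The control cells are titled WT, while their descriptions name shLUC, a luciferase shRNA. All shYY1 descriptions read shYY1-2, and what the 2 stands for is not stated in the labels. Each group had 3 libraries that the labels call biological replicates. All groups share 1 cell line. No list of YY1 in shYY1 cells was used here, so how far YY1 fell is not known from these lists.

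Bcl2, Bcl2l1 (which encodes Bcl-xL) and Mcl1 encode survival proteins that hold the pore-forming proteins in check. Bax and Bak1 encode those pore formers, which open the outer mitochondrial membrane and release cytochrome c. Bcl2l11 (Bim), Bbc3 (Puma), Pmaip1 (Noxa), Bid and Bad encode proteins with only the BH3 domain, which bind the survival proteins and lift the block, and some of them also activate Bax and Bak directly. Blood stem and progenitor cells depend on Mcl1 for survival, and Bim sets the death of many blood cells deprived of cytokine. H3K4me3 marks promoters that are active or poised, YY1 is a zinc-finger protein found at many promoters, and cohesin holds DNA in loops.

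The lists of H3K4me3 held between 16763 and 17895 peaks, those of YY1 between 3750 and 10699, those of SMC3 in shYY1 cells between 2631 and 3213 and those of SMC3 in control cells between 2061 and 4595. Replicate 3 of YY1 and replicate 3 of control SMC3 stood apart with the fewest peaks of their groups, 3750 and 2061. The lists give only positions, so the sequencing depth is unknown and the number and length of peaks move with depth as well as with the amount of target. H3K4me3 was called in at least 2 libraries within 1000 bp of the start of 9 of 10 haematopoietic progenitor markers, all but Lmo2, which had it elsewhere in its window. It was also called at the start of the erythroid marker Klf1, and at 0 of 6 embryonic stem cell, 0 of 4 lymphoid, 0 of 5 fibroblast and endothelial and 0 of 6 hepatocyte, neuron and muscle markers.

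The promoters below are those of genes that differ in their called peaks, and whether sequence sets that difference was not tested. They come from RefSeq (GRCm38.p6, the assembly of mm10), run 5′ to 3′ on the gene's own strand, and span 250 bases before the listed start to 50 bases after it. In the first 3, the capitals mark 15 bases centred on the middle summit of the YY1 and SMC3 peaks, because most summits of separate libraries fell there to within 2 bp. Mcl1 lies at chr3:95658471-95658770 on the + strand, Bbc3 at chr7:16309333-16309632 on the + strand and Bid at chr6:120916775-120917074 on the - strand.
Mcl1: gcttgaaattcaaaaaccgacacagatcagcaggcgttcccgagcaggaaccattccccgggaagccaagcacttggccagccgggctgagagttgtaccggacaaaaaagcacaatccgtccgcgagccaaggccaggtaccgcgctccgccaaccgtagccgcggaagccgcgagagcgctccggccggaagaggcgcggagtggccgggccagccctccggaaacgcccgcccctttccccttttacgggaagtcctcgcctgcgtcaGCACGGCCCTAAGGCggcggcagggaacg
Bbc3: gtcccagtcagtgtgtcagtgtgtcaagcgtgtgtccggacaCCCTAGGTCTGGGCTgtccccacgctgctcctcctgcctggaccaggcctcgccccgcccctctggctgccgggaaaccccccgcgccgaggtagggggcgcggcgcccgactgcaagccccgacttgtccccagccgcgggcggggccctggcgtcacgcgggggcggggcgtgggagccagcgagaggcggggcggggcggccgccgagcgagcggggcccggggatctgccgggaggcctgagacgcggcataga
Bid: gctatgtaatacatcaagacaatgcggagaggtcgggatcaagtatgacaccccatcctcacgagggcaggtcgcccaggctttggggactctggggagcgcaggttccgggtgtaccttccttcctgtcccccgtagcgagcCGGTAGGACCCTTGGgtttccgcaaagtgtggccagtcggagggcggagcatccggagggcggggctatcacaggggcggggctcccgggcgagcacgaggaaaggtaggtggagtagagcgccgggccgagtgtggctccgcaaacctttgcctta

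In the next pair, Bad at chr19:6941611-6941910 on the + strand and Bax at chr7:45466849-45467148 on the - strand, the capitals mark the only letters of the searched YY1 motifs in any listed promoter of the family.
Bad: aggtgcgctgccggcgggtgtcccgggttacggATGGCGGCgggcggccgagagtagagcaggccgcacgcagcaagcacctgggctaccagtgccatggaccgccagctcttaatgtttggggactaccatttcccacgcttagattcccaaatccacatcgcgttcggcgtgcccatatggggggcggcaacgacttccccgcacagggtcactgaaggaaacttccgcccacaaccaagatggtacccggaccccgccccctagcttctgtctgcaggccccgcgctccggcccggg
Bax: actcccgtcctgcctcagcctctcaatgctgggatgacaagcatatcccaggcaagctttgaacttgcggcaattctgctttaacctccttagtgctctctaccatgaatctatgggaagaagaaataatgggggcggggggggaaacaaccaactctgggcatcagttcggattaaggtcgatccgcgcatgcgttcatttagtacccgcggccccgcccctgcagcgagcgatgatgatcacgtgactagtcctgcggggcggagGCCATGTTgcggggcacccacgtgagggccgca

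The last is Bcl2 at chr1:106714241-106714540 on the - strand, shown in lower case throughout because it held no YY1 or SMC3 peak in any library while H3K4me3 covered it in 3 of 3.
Bcl2: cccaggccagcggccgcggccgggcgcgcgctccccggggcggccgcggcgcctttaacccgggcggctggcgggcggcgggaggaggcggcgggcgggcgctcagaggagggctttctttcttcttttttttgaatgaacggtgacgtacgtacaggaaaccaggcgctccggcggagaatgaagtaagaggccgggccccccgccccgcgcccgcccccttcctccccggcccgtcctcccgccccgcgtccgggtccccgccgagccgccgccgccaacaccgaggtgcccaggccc

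All 10 genes had H3K4me3 in their window, 8 had YY1, 4 had SMC3 in shYY1 cells and 5 had SMC3 in control cells, each in at least 2 of 3 libraries. Over all protein-coding genes, 57.9% had H3K4me3, 40.5% had YY1, 16.6% had SMC3 in shYY1 cells and 21.6% had SMC3 in control cells by the same rule. Bcl2 and Pmaip1 were the genes without YY1 by that rule. SMC3 was called at Bcl2l1, Mcl1, Bcl2l11 and Bax in shYY1 cells, and at these genes and Bbc3 in control cells. These shares were not tested against the rest of the genome, since the 10 genes were chosen by name with earlier results known.

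Within 1000 bp of their own listed starts, 9 genes had H3K4me3, 7 had YY1, 3 had SMC3 in shYY1 cells and 4 had SMC3 in control cells. The shares over all genes were 47.6% for H3K4me3, 29.2% for YY1, 10.9% for SMC3 in shYY1 cells and 14.2% for SMC3 in control cells. Pmaip1 has no listed start in the table used here. As for every gene without one, both ends of its span were used instead, and no peak lay within 1000 bp of either. Among the 10428 genes with H3K4me3 at the start, YY1 was called at 7 of the 9 family genes and at 61.3% of all genes. SMC3 of shYY1 cells was called at 3 of the 9 and at 22.8% of all, and SMC3 of control cells at 4 of the 9 and at 29.7% of all. With 9 genes, counts of this size do not set the family apart from other marked promoters.

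**Figure D1:**
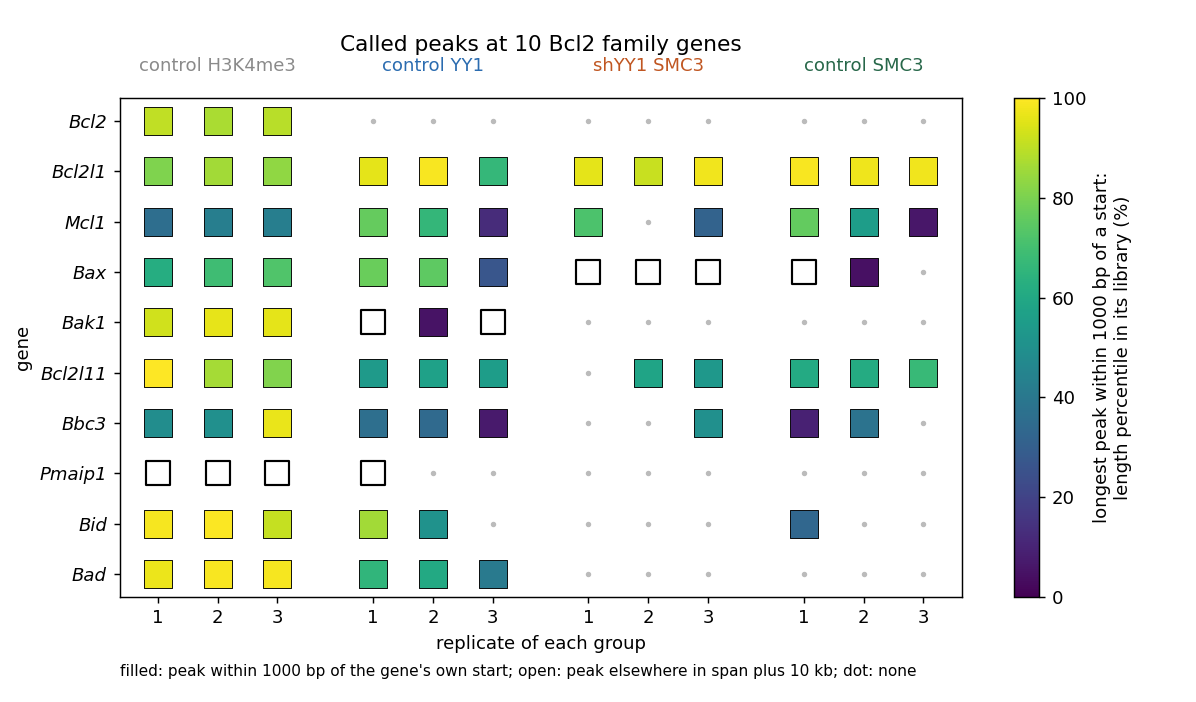
Presence of called peaks at 10 Bcl2 family genes (rows) in 12 libraries (columns, 3 replicates per group). Filled squares are peaks within 1000 bp of the gene's own start, coloured by the length percentile of the longest such peak in its library (%), open squares are peaks elsewhere in the window and dots mark none; Bcl2l1 is filled in all 12 libraries and Bcl2 only in the 3 of H3K4me3.

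The YY1 and SMC3 peaks merged into 18 sites. Of these, 11 lay at a gene's own start, 2 at the start of the neighbour Ftl1 in the Bax window, 3 inside a gene span away from its starts and 2 in a flank. H3K4me3 peaks merged into 20 regions, 11 of them at an own start. In the windows, 11 of 11 SMC3 peaks of shYY1 cells and 17 of 17 of control cells overlapped both YY1 and H3K4me3 peaks called in at least 2 libraries. Over all SMC3 peaks, the share on YY1 was 93.4% of 8876 in shYY1 cells and 91.1% of 11167 in control cells, and the share on H3K4me3 was 93.1% in shYY1 cells and 92.7% in control cells.

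Among the survival genes, Bcl2l1 was the only 1 of the 10 with SMC3 in all 6 SMC3 libraries. Its shared site lay at chr2:152830644-152831731, about where RefSeq lists the starts 152831728 and 152830717 on the - strand. SMC3 peaks at this start were 563, 432 and 608 bp long in shYY1 libraries 1 to 3, and 724, 593 and 642 bp in control libraries 1 to 3. YY1 peaks there were 724, 1088 and 401 bp long, and the third YY1 library again had the shortest. The summits of the 9 YY1 and SMC3 peaks spanned 115 bp, between 338 and 453 bp downstream of the outermost start. The upstream edge of 9 of the 12 H3K4me3, YY1 and SMC3 peaks fell between 152831731 and 152831735, beside that start, and what fixed it was not tested. In length, the SMC3 peak ranked at the 91.4 to 97.7 percentile of its list in shYY1 libraries and at the 97.3 to 99.0 percentile in control libraries.

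A second Bcl2l1 site lay inside the gene, at chr2:152788842-152789923, with summits at least 38771 bp downstream of the nearest listed start of the gene. It held YY1 in 3 of 3 libraries and H3K4me3 in 3 of 3. SMC3 was called there in 0 of 3 shYY1 libraries and in 2 of 3 control libraries, with lengths of 433 bp in control replicate 1 and 183 bp in control replicate 3. No listed start of any gene lay nearer than 31576 bp to the middle of this site, and control replicate 2, the longest control list, had no peak in it. H3K4me3 there was 1251, 1252 and 1183 bp long, close to its 1280, 1212 and 1195 bp at the promoter.

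The genes with the most similar pattern to Bcl2l1, by the mean absolute difference in the percentile of the longest peak over 12 libraries, were Ptprs (2.19 percentile points), Odr4 and Tpr (2.21 each). Odr4 and Tpr had identical values. The median over all genes was 78.6 percentile points, and this likeness describes called peaks only.

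Mcl1 had its peaks on the start itself. The site at chr3:95658443-95658906 held YY1 in 3 of 3 libraries, SMC3 in 2 of 3 shYY1 libraries and SMC3 in 3 of 3 control libraries. SMC3 covered 332, 0 and 190 bp in shYY1 libraries 1 to 3, against 346, 262 and 161 bp in control libraries 1 to 3. The groups overlapped, and the shYY1 replicate 2 was the only SMC3 library with no peak. Of the 8 YY1 and SMC3 peaks, 6 had their summit within 2 bp of position 95658749, which is 28 bases downstream of the start and is the centre of the capitals in the printed Mcl1 promoter. A further site 902 bases downstream of the start had YY1 in 1 library and no SMC3. At Mcl1 the H3K4me3 was split into a pair of peaks in each of the 3 libraries, with summits near the start and 904 to 906 bases beyond it.

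Bcl2 had a single H3K4me3 region at its start, at chr1:106713598-106715102, with peaks of 1505, 1238 and 1332 bp. Their summits fell within 1 bp of each other in the 3 libraries, 282 or 283 bases downstream of the start. No YY1 or SMC3 peak was called anywhere in the window of Bcl2, although its span of 176115 bp is the longest of the 10. Without counts, a peak below the calling threshold cannot be told apart from none.

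**Figure D2:**
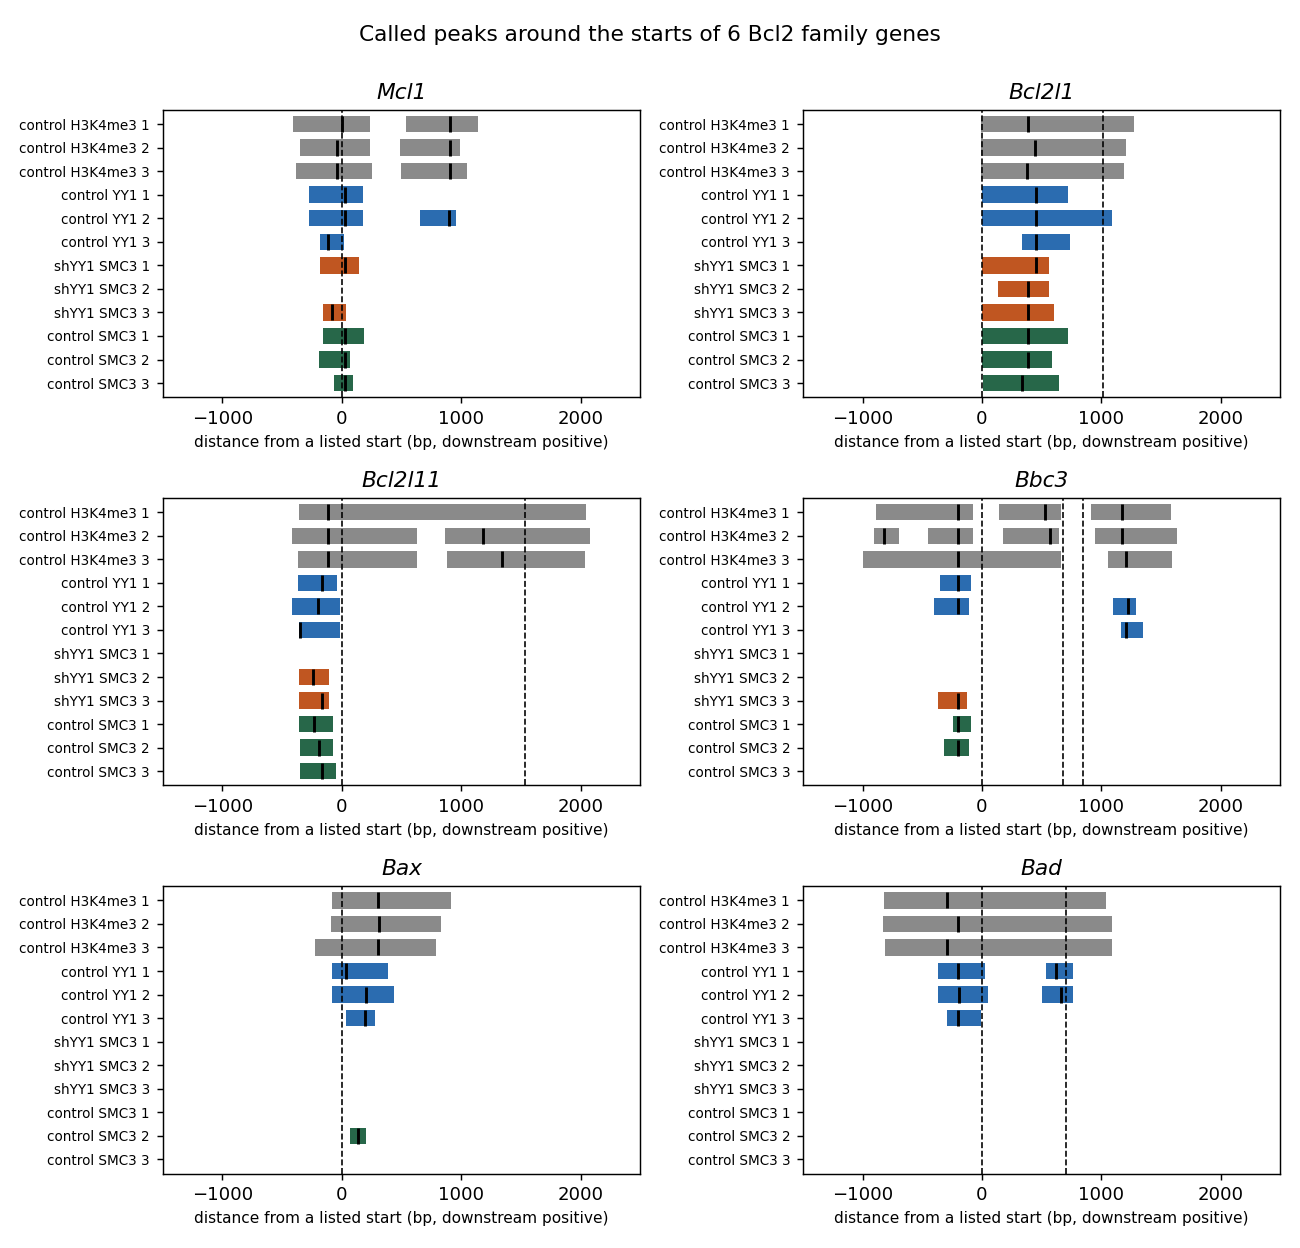
Called peaks (bars) and their summits (black ticks) by distance in bp from a listed start (x axis, downstream positive, dashed lines mark listed starts) in the 12 libraries (rows) for 6 genes. The summits of YY1 and SMC3 line up in 6 of 8 peaks at Mcl1 and in 5 of 5 at the first site of Bbc3, at Bcl2l11 the YY1 and SMC3 bars end before the start while H3K4me3 runs on past it, and at Bad only YY1 and H3K4me3 are present.

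Of the pore formers, Bax carried YY1 at its own start in 3 of 3 libraries, at chr7:45466458-45466977, with lengths of 463, 520 and 245 bp. SMC3 was called at that start in 0 of 3 shYY1 libraries and in 1 of 3 control libraries, as a 134 bp peak in control replicate 2. The rest of the SMC3 in the Bax window lay at chr7:45459668-45460165, the start of Ftl1, which encodes a ferritin light chain. There SMC3 peaks of 221, 137 and 160 bp were called in shYY1 libraries 1 to 3, against 240, 193 and 0 bp in control libraries 1 to 3. A count of SMC3 in the Bax window therefore mostly reads the promoter of Ftl1.

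Bak1 had H3K4me3 over its start in 3 of 3 libraries, with lengths of 1594, 1586 and 1611 bp, in a region it shares with the start of Ggnbp1. YY1 was called at this start in 1 library only, as a 167 bp peak 25 bases downstream of it. The YY1 peaks that placed Bak1 among the YY1 genes of the window lay at chr17:27012068-27012600, 7212 bp outside the span of Bak1 and 5435 bp from that of Ggnbp1. That flank site had YY1 in 3 of 3 libraries, with 164, 526 and 183 bp, over an H3K4me3 region called in 3 of 3. SMC3 was called in no library of shYY1 or control cells in the Bak1 window.

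Among the genes for BH3-only proteins, Bcl2l11 had a site before its first start. At chr2:128125623-128126026, just before the first listed start at 128126038 and inside the end of the span of Acoxl, YY1 was called in 3 of 3 libraries with 332, 402 and 345 bp. SMC3 covered 0, 253 and 245 bp in shYY1 libraries 1 to 3, against 280, 280 and 304 bp in control libraries 1 to 3. Each shYY1 value lay below each control value. In shYY1 libraries 2 and 3 the peaks began at 128125682 and 128125684, as in the control libraries (128125682 to 128125685), and ended at 128125934 and 128125928, against 128125961 to 128125988 in control cells. None of these SMC3 peaks reached the second listed start at 128127575, which H3K4me3 did reach in 3 of 3 libraries.

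Bbc3, a p53 target in many cell types, had YY1 in 2 libraries at chr7:16309184-16309486. SMC3 covered 0, 0 and 237 bp in shYY1 libraries 1 to 3, against 144, 213 and 0 bp in control libraries 1 to 3, so the groups overlapped. The summits of these 5 peaks fell within 1 bp of each other, at position -201 or -202 from the start, at the centre of the capitals in the printed Bbc3 promoter. The summits of 3 H3K4me3 peaks, 1 from each library, were within 2 bp of the same base. What fixed the summit to this base was not tested. A second site at chr7:16310683-16310933, past the third listed start, had YY1 in 2 libraries and no SMC3.

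Bid had YY1 at its start in 2 libraries, of 543 and 369 bp, in the site chr6:120916502-120917044. SMC3 was called there in 0 of 3 shYY1 libraries and in 1 of 3 control libraries, as a 200 bp peak in control replicate 1. The summits of these 3 peaks lay at position -99 or -100 from the start, inside the capitals of the printed Bid promoter, and the summit of 1 H3K4me3 peak fell on the same base to within 2 bp. Bid is the member that caspase-8 cleaves to link death receptors to mitochondria.

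Bad had 3 YY1 sites at its starts or within its span, the most of the 10 genes, and no SMC3 in any library. The site at its first start, chr19:6941491-6941912, lies in a region shared with the start of Gpr137 and had YY1 in 3 of 3 libraries with 391, 422 and 287 bp. Its summits fell within 1 bp of each other, at position -196 or -197 from the start. The other YY1 sites of Bad, chr19:6942363-6942625 at the second start and chr19:6951321-6951811 inside the span, were each called in 2 libraries. H3K4me3 covered both the starts and the internal site in 3 of 3 libraries.

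Pmaip1 had no peak of any target inside its span. Its window held an H3K4me3 region on chromosome 18 from 66470725 to 66471514, called in 3 of 3 libraries, 5167 bp beyond the end of the span. YY1 was called there in 1 library, with 156 bp, and SMC3 in none of the shYY1 or control libraries. The nearest other span of a protein-coding gene, that of Ccbe1, lay 178887 bp away.

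The searched YY1 letters were AANATGGC and the longer core ATGGCGGC, which overlap in ATGGC, and both strands were read. They were present in 6.05% and 2.24% of 32851 listed promoters. In promoters with YY1 in at least 2 libraries the shares were 13.1% and 7.6%, against 3.24% and 2.2% in promoters with H3K4me3 and no YY1 peak. Median GC content was 63.0% in promoters with YY1, against 61.0% in those with H3K4me3 and no YY1 and 52.7% in all listed promoters.

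Of the 15 listed promoters of the family, 1 of Bad held ATGGCGGC and that of Bax held AANATGGC, the second on the opposite strand as GCCATGTT. At Bad the match spans positions -217 to -210 from the start, and the YY1 summits lay 17, 18 and 17 bp from its middle in libraries 1 to 3, with the match inside the peak each time. At Bax the match spans positions 17 to 24 past the start, and the YY1 summits lay 16, 181 and 178 bp away in libraries 1 to 3. The letters thus lay within 18 bp of the summit in 3 of 3 YY1 libraries at Bad and in 1 of 3 at Bax. The other letters searched were common. The GC box GGGCGG was in 10 of the 15 promoters and 35.7% of all. AGGNGGCG, a part of the CTCF core, was in 9 and 12.9%, and CCAAT in 4 and 37.4%. Promoters of 1 gene can overlap and share matches, as at Bbc3. Of the 9 genes with a listed start, GGGCGG was found at 7, AGGNGGCG at 6 and CCAAT at 3. Shares per gene were not computed over all genes. GC content ran from 49.3% to 78.0% in the 15 promoters, against a median of 52.7% in all listed promoters. The shares were not adjusted for it. In promoters with YY1, 73.4% held GGGCGG, 26.5% AGGNGGCG and 44.2% CCAAT, against 61.3%, 23.1% and 29.7% in those with H3K4me3 and no YY1. The Bcl2 promoter, without YY1 or SMC3 peaks, held both GGGCGG and AGGNGGCG.

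The shYY1 comparison asked whether SMC3 at these genes differs when YY1 is targeted. An SMC3 peak was called in the window of 3, 3 and 5 of the 10 genes in shYY1 libraries 1 to 3, against 6, 5 and 3 in control libraries 1 to 3. The means were 3.67 ± 1.15 genes in shYY1 cells and 4.67 ± 1.53 genes in control cells (SD, n = 3 each), so the groups overlapped. Over all genes the share with SMC3 was 15.8%, 18.3% and 17.6% in shYY1 libraries and 25.1%, 25.5% and 12.4% in control libraries. Control replicate 3 was the lowest of the control libraries in both measures. With the 2061 longest peaks of each SMC3 list, the difference between the means was -0.333 genes, against -1.0 with the full lists. It was 0 without both first libraries, whose descriptions name Abcam, and ranged from -1.83 genes without control replicate 3 to -0.333 genes without control replicate 1 when 1 library was left out (-1.67 without shYY1 replicate 3). From called peaks of a bulk sample, fewer cells with SMC3 at a site and less SMC3 per cell cannot be told apart.

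Of the 6935 genes with SMC3 in any library, 4.14% had a smaller covered length in each of the shYY1 libraries than in any control library, and 0.418% had a larger one. Of the 6 family genes with SMC3, 1 lay below, Bcl2l11, and 0 lay above. The exact two-sided permutation test over 3 against 3 libraries cannot give less than 0.1, and the p adjusted over the 6935 genes was 1 for every family gene. No difference between the groups could therefore pass a threshold of 0.05.

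For Bcl2l11 the mean covered length was 166 ± 144 bp in shYY1 cells and 288 ± 13.9 bp in control cells (SD, n = 3 each), a difference of -122 bp (exact permutation p = 0.1). For Bcl2l1 it was 534 ± 91.4 bp in shYY1 cells and 858 ± 284 bp in control cells, a difference of -324 bp (exact permutation p = 0.2, n = 3 each). At the Bcl2l1 start alone the means were 534 ± 91.4 bp in shYY1 cells and 653 ± 66.2 bp in control cells, a difference of -119 bp (exact permutation p = 0.2, n = 3 each). The rest of the window difference came from the internal site.

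For Mcl1 the means were 174 ± 167 bp in shYY1 cells and 256 ± 92.6 bp in control cells, a difference of -82.3 bp (exact permutation p = 0.6, n = 3 each). Without shYY1 replicate 2 this difference was 4.67 bp, so the lower mean of shYY1 cells rested on that library. Bbc3 had 79.0 ± 137 bp in shYY1 cells and 119 ± 109 bp in control cells (exact permutation p = 1, n = 3 each). Bax had 173 ± 43.4 bp in shYY1 cells and 189 ± 169 bp in control cells (exact permutation p = 0.9, n = 3 each). At the start of Bax itself the means were 0 bp in shYY1 cells and 44.7 bp in control cells, and the rest, 173 bp in shYY1 cells and 144 bp in control cells, lay at Ftl1. Bid had 0 bp in shYY1 cells and 66.7 ± 115 bp in control cells (exact permutation p = 1, n = 3 each). Bcl2, Bak1, Pmaip1 and Bad had no SMC3 in any library of either group.

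**Figure D3:**
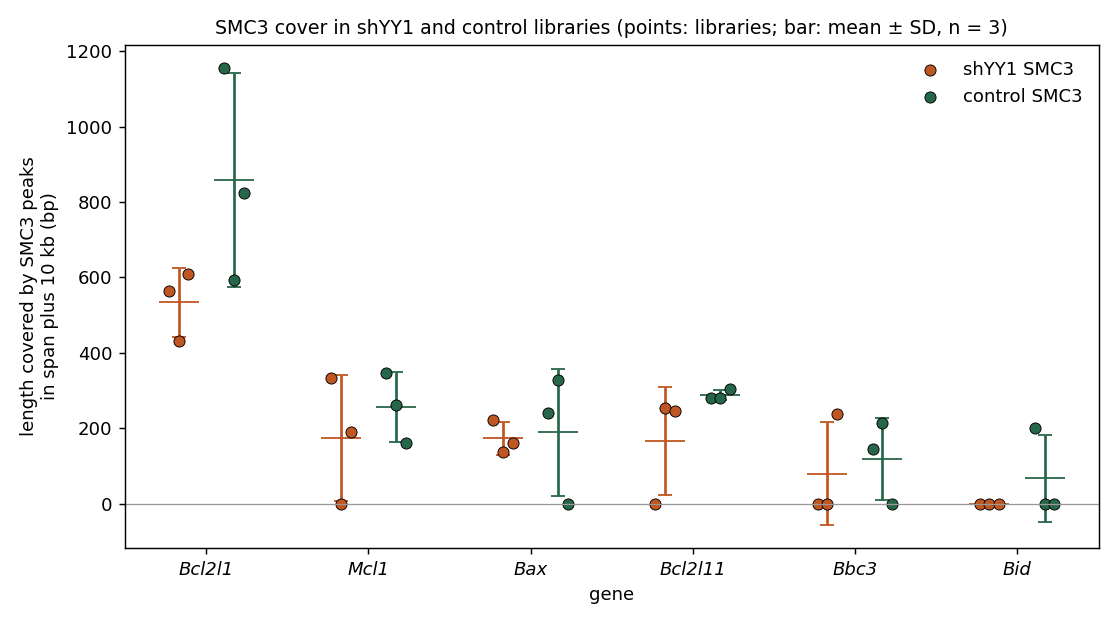
Length covered by SMC3 peaks in the window (y axis, bp) of the 6 genes with any SMC3, in shYY1 libraries (left, orange) and control libraries (right, green). Points are libraries and bars are the mean ± SD (n = 3 each); only at Bcl2l11 do the groups not overlap, with 0, 253 and 245 bp in shYY1 libraries below 280, 280 and 304 bp in control libraries.

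The first SMC3 library of each group names Abcam in its description, whereas the protocol lists an Abcam antibody as the one for SMC3. Without both of those libraries the Bcl2l11 groups still did not overlap, with a difference of -43.0 bp (exact permutation p = 0.333, the smallest possible with 2 against 2). The Bcl2l1 difference was then -189 bp (exact permutation p = 0.667). Without control replicate 3, the shortest SMC3 list, the differences were -114 bp at Bcl2l11, -341 bp at Bcl2l1, -130 bp at Mcl1, -111 bp at Bax, -99.5 bp at Bbc3 and -100.0 bp at Bid. The covered lengths in the Bax window, mostly at Ftl1, then no longer overlapped between the groups. How many of all genes have groups that do not overlap when libraries are left out was not computed.

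H3K4me3 was called in the windows of all 10 genes, and its peaks differed widely in length among them. The longest H3K4me3 peak in the window was on average 2035 ± 29.1 bp at Bad, 1815 ± 377 bp at Bid and 1597 ± 12.8 bp at Bak1 (SD, n = 3 each). Bad reached the 99.1 percentile of its lists on average, through a region at 6950574 to 6952641. That region runs past the end of the Bad span at 6951905. The H3K4me3 region at the Bad starts was at the 98.3 percentile on average. At the other end, Pmaip1 had 682 ± 89.4 bp and Mcl1 had 624 ± 28.9 bp, at the 44.8 and 40.1 percentile. The Pmaip1 peak lay in the flank, 5167 bp beyond the end of the span. Mcl1 and Pmaip1 overlapped. Pmaip1 was the shorter in replicates 1 and 3 (640 and 622 bp, against 645 and 636 bp at Mcl1). Mcl1 was the shorter in replicate 2 (591 bp, against 785 bp at Pmaip1). The pair of H3K4me3 peaks at the Mcl1 start covered 1179 ± 77.4 bp in all, so the longest peak is shorter than the marked stretch there.

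Between these lay Bcl2 with 1358 ± 135 bp, Bcl2l1 with 1242 ± 43.3 bp and Bax with 1291 ± 104 bp (SD, n = 3 each). The Bax value came from the Ftl1 start, and at its own start Bax had 979 ± 47.4 bp. Bcl2l11 and Bbc3 varied most between libraries. Bcl2l11 had 1 peak of 2405 bp in replicate 1 and a pair of shorter peaks over the same stretch in replicates 2 and 3, with longest peaks of 1220 and 1156 bp. Bbc3 had 817, 684 and 1655 bp in replicates 1 to 3. The separate peaks at the Bbc3 starts covered 1981 ± 227 bp in all. Neighbours in this order, such as Bcl2, Bax and Bcl2l1, overlapped in the values of their libraries.

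The median of the longest H3K4me3 peak over the 10 genes was 1438, 1229 and 1330 bp in replicates 1 to 3. Over all genes with a peak in the window it was 1155, 1016 and 1046 bp. At own starts the medians were 1505, 1220 and 1332 bp over the 9 family genes and between 967 and 1106 bp over all genes. These medians were not tested, and a long peak here may belong to a neighbour, as at Bax.

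**Figure D4:**
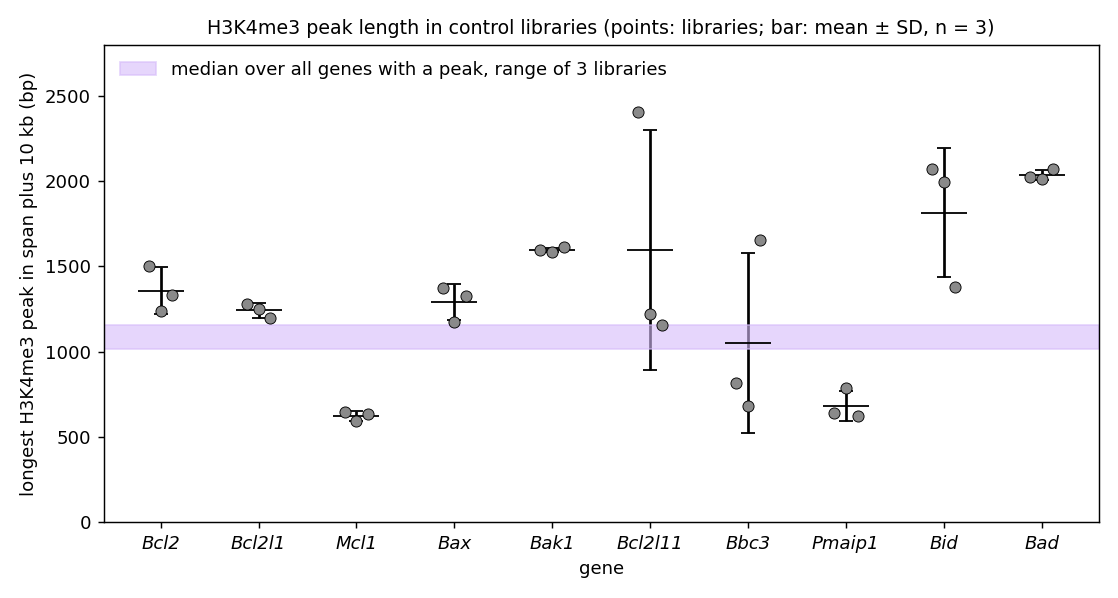
Longest H3K4me3 peak in the window (y axis, bp) of each of the 10 genes (x axis) in control cells; points are libraries and bars the mean ± SD (n = 3). The shaded band is the range over 3 libraries of the median over all genes with a peak (1016 to 1155 bp); all 3 points of Mcl1 and Pmaip1 lie below it and those of Bad, Bid, Bak1, Bcl2, Bcl2l11, Bax and Bcl2l1 above it.

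The surrounding pathway was described by 50 other genes of apoptosis. In at least 2 libraries, 45 had H3K4me3 in the window, 36 had YY1, 19 had SMC3 in shYY1 cells and 24 had SMC3 in control cells, where the shares over all genes were 57.9%, 40.5%, 16.6% and 21.6% in the same order. At their own starts the counts were 40 for H3K4me3, 31 for YY1, 15 for SMC3 in shYY1 cells and 20 for SMC3 in control cells. The shares over all genes there were 47.6%, 29.2%, 10.9% and 14.2% in the same order. None of these counts was tested, since the 50 genes were chosen by name. Of the 27 with SMC3 in any library, 0 had groups that did not overlap in either direction, where 4.14% of all genes with SMC3 lay below and 0.418% above.

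Among the 14 other Bcl2 family genes, 4 had SMC3 in each group: Bcl2l2, Bcl2l12, Bnip3 and Bnip3l. Only the last pair, which encode mitochondrial proteins with a part in mitophagy, had SMC3 at their own start. Bcl2l2 and Bcl2l12 had it elsewhere in the window. Of the 7 genes for proteins at or released from mitochondria, 3 had SMC3 in shYY1 cells (Vdac1, Vdac2 and Htra2) and 5 in control cells, with Cycs, which encodes cytochrome c, and Aifm1 added. At Aifm1, SMC3 was called in 0 of 3 shYY1 libraries and in 2 of 3 control libraries.

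Among the genes for caspases and the apoptosome, Apaf1, Casp9 and Casp2 had SMC3 in both groups. The initiator Casp9 and Casp2 had YY1 and SMC3 at the start in 3 of 3 libraries of each group, and Apaf1 had YY1 in 3 of 3 and SMC3 in 2 of 3 libraries of each group. Of 5 caspase inhibitors, Birc2 and Birc6 had SMC3 in both groups and Birc3 in control cells. Of 7 genes of the death receptor route, Cflar and Ripk1 had it in both groups and Fadd in control cells, with the Cflar peaks away from its start. Of 6 genes around p53, Mdm4 and Cdkn1a had SMC3 in both groups in the window. Trp53 had YY1 in 2 libraries and no SMC3.

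Of 4 genes for enzymes that set the stability of the Mcl-1 protein, the deubiquitinase gene Usp9x and the ubiquitin ligase gene Fbxw7 had SMC3 at the start in 3 of 3 libraries of each group. Huwe1, another ligase gene, had SMC3 in 1 of 3 shYY1 libraries and in 2 of 3 control libraries. Trim17 had YY1 in 2 libraries and no SMC3. At Usp9x and Fbxw7, SMC3 was thus called in more shYY1 libraries than at Mcl1 itself, where it was called in 2.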

How the data were processed

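Peaks of HPC-7 CUT&Tag libraries were compared over 12 lists, 3 per group. The deposited lists give, per the file headers, each peak's chromosome, start, end, name and summit offset, with no score, signal or count. The submitters' processing notes name the build mm10, MACS2 2.2.9.1, Picard 3.1.1, Bowtie2 2.5.1 and cutadapt 4.5, without settings, thresholds or any role of IgG. Between 49 and 99 peak numbers were missing per list, so some peaks are absent. Starts were treated as 0-based and shifted by 1.

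Gene spans and promoters came from RefSeq GRCm38.p6, and 17492 genes had a listed start. A peak counted with 1 bp in the window (span plus 10 kb), or within 1000 bp of a listed start. For genes without a listed start, both ends of the span were used instead. A shared peak counted for each gene. Covered length in bp was compared between groups with exact two-sided permutation tests over 20 assignments, with Benjamini-Hochberg adjustment over 6935 genes. Calculations were tested on simulated data, in Python 3.11.15 with scipy 1.17.1.

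Members, gene lists and motifs were chosen with earlier results of these data known. The rule for named genes was all 10 members, pathway genes with SMC3 in at least 2 libraries of a group, the 3 genes most like a member with SMC3 in all 6 libraries, and neighbours whose start lay in a window; other pathway genes named were chosen after their values were seen. Some listed genes are not reported here. Alternatives were other windows and overlaps, 3 of 3 libraries, lists of equal length, leaving out libraries and a replicate block.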

Additional observations from a re-analysis of the deposited data

How the results depend on the processing

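Of 164 alternative values, 8 changed sign and 15 moved by over 1.5 times (counts) or by more than the spread between libraries (other values). For covered length, 66 of 74 differences between shYY1 and control stayed below 0. Reversed differences were those of Bbc3 without both libraries that name Abcam (12 bp), of Bax and Bbc3 with the 2061 longest peaks of each list (73.7 and 79.0 bp), and, on leaving out 1 library, the upper ends of these ranges: Mcl1 -161 to 4.67 bp (above 0 without shYY1 replicate 2), Bax -111 to 52.7 bp (above 0 also at 1.5 bp without shYY1 replicate 2 and 9.17 bp without control replicate 1, highest without control replicate 2) and Bbc3 -119 to 7.0 bp (highest without control replicate 2). The ranges were -457 to -175 bp for Bcl2l1, -166 to -39.0 bp for Bcl2l11 (lowest without shYY1 replicate 2, highest without shYY1 replicate 1) and -100.0 to -66.7 bp for Bid. For these results the cause was not tested.

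With the span alone, 2 genes had SMC3 in shYY1 cells and 3 in control cells, and 0 had groups apart, because the Bcl2l11 peaks lie outside its span. With 25 kb, 6 genes had SMC3 in shYY1 cells and 6 in control cells, and 2 lay below, Bcl2l1 and Bcl2l11. With 3 of 3 libraries required, the window counts were 2 in shYY1 cells and 3 in control cells, and 1 in shYY1 cells at own starts. Leaving out 1 library makes the rule of 2 libraries need both: the window count was then 2 to 3 in shYY1 cells (2 without replicate 3) and 3 to 5 in control cells (3 without replicate 1 or 2), and the own-start count 1 to 2 in shYY1 cells (1 without replicate 3). The count of genes with shYY1 below control was 1 to 2. The second was Bcl2l1 without shYY1 replicate 3 or control replicate 2, and Bax without control replicate 3. Shares over all genes were not computed at the settings of this paragraph, so its counts cannot be read as more or fewer than in other genes. The mean over libraries of the H3K4me3 median, 1332 bp, was 2259 bp for total covered length.

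Same-numbered libraries did not deviate together (correlations of -0.013, 0.0211 and -0.0275). Correlations between libraries of other numbers were as near 0 (-0.0402 to 0.0535), so whether the numbers pair libraries cannot be told from them. With a replicate block the differences stay the same by construction (-324 bp for Bcl2l1, -122 bp for Bcl2l11, -82.3 bp for Mcl1, -16.3 bp for Bax, -40.0 bp for Bbc3, -66.7 bp for Bid and -1.0 genes per library). The exact sign-flip p was then 0.25 for Bcl2l1 and Bcl2l11, the smallest possible, 0.75 for Mcl1 and Bax and 1 for Bbc3 and Bid. Unknown depth limits all of these values, and a stricter peak threshold was not run because the lists hold no score. Without control replicate 1 or both Abcam libraries, or with lists of equal length, Bid had no SMC3 and no value.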
